A study of Caenorhabditis elegans with 4 samples.

Results

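Larvae of Caenorhabditis elegans treated with auxin to deplete TOP-2 and DPY-27 were compared here with larvae treated to deplete TOP-1 and DPY-27. For each gene, the log2 fold change over the control in the first was taken minus that in the second, so that the common control drops out. Only genes whose mean normalized count reached 10 in both of the authors' deposited tables were kept. These are 13027 of the 17491 genes in either table, 10960 on autosomes and 2067 on the X chromosome. Just inside that floor lay his-1, with means of 10.3 and 10.0 in the authors' deposited tables and a difference of 0.00 ± 1.52 (SE). Just outside it lay T10E9.4, with means of 12 and 9.99 in the authors' deposited tables and a difference of 2.96 ± 2.11 (SE).

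The TOP-2-depleted larvae were of strain AM11, which carries top-2::degron::GFP together with dpy-27::degron::GFP. The TOP-1-depleted larvae were of strain AM12, which carries top-1::degron::GFP together with dpy-27::degron::GFP. Both strains were L2/L3 larvae grown for 24 h at 22 °C and then kept for 2 h on 1 mM auxin, with 2 libraries each. Both were set by the authors against strain CA1200 on auxin. The degron marks a protein for destruction once auxin is present, in animals that make the plant protein TIR1. Because DPY-27 carries the degron in both groups, the comparison is by design between 2 topoisomerases and not between presence and absence of dosage compensation. Protein levels are not among the data, so the extent of each depletion was not tested. Strain and the topoisomerase depleted cannot be told apart. The tables hold no value per library, so how many libraries showed a direction cannot be told. The series speaks of biological replicates without naming separate cultures, so p-values measure only the spread between libraries, which may be technical.

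Topoisomerases relieve the twist that builds up when a polymerase runs along DNA. Type I enzymes such as TOP-1 cut a single strand and let the helix turn, and type II enzymes such as TOP-2 cut both strands and pass another duplex through the gap. DPY-27 belongs to condensin DC alone, the condensin that loads onto the X chromosomes of hermaphrodites and reduces transcription from them.

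The level of each group could be worked back from the deposited mean and fold change, since both tables contain the control. When 2 control libraries were assumed, the control levels implied by the 2 tables matched over 4275 well-measured genes with an SD of 0.0044 on the log2 scale. With 1, 3 or 4 control libraries assumed, that SD was 0.0819, 0.0431 and 0.0725. Levels below are therefore implied mean normalized counts of 2 libraries per group, and they carry no spread of their own. The SE of each difference, with a median of 0.573, treats the 2 tables as independent, which overstates the error because they share the control. Halving the squared SE removes the control's share where control and depleted groups add equally to it, which need not hold for genes with very unequal levels, and gives a median SE of 0.405. An estimate from the recovered group means, which does not assume this, gives 0.404.

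The difference between the depletions was tested gene by gene with a Wald test and Benjamini-Hochberg adjustment over all 13027 genes, called at an adjusted p under 0.05. By that test 15 genes (0.115%) differed, of which 9 (0.0691%) were higher after TOP-2 depletion and 6 (0.0461%) lower. With the control's share of the error left out, 344 genes (2.64%) differed, 241 (1.85%) higher after TOP-2 depletion and 103 (0.791%) lower, and all 15 were among them. By the estimate from group means 358 differed, and 338 of the 344 were among these, all called list members included. An unadjusted p under 0.05 was reached by 602 genes, 406 higher and 196 lower. The median difference was 0.04, with quartiles of -0.31 and 0.40, and 774 genes lay above 1 and 606 below -1. Centred on the autosomal median of 0.07, the independent test called 19 genes, 9 higher and 10 lower, so the higher calls stayed at 9 while the lower went from 6 to 10, and the higher share from 60% to 47.4%.

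Most of the genes that were higher after TOP-2 depletion stood near the control there and low after TOP-1 depletion. The level of hum-7, a class IX myosin, was 479 in the control, 843 after TOP-2 depletion and 161 after TOP-1 depletion. The difference was 2.39 ± 0.52 (SE, adjusted p 0.0114, Wald test with Benjamini-Hochberg adjustment), or 5.25-fold. The gene sorb-1, which encodes a sorbin-domain protein, had levels of 822, 1018 and 225 in the same order and a difference of 2.18 ± 0.53. The levels of snf-6, a transporter of the sodium:neurotransmitter symporter family, were 405, 436 and 83.4, with a difference of 2.39 ± 0.58. Its close neighbour on chromosome III, tmem-120, a transmembrane protein gene, had levels of 767, 712 and 183 and a difference of 1.96 ± 0.47. In all 4 genes the TOP-1-depleted group was the low one, while the TOP-2-depleted group was within 2-fold of the control.

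The cuticle gene dpy-1, whose loss gives short, thick worms, had levels of 1419 in the control, 1892 after TOP-2 depletion and 247 after TOP-1 depletion. Its difference was 2.94 ± 0.72, or 7.67-fold, with an adjusted p of 0.0419 by the Wald test with Benjamini-Hochberg adjustment. Without the floor of 10 its adjusted p was 0.0534 by that test, and it was no longer called. The gene trp-4, a TRPN channel of mechanosensory neurons, had levels of 710, 145 and 26.7, so both depleted groups were below the control and the TOP-1-depleted group further. Y52B11A.4 showed the same order, with levels of 554, 290 and 55.3 and a difference of 2.39 ± 0.56.

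A pair of the 9 genes had another pattern. The astacin protease gene nas-38, on the X, had levels of 660 in the control, 3735 after TOP-2 depletion and 575 after TOP-1 depletion, and a difference of 2.70 ± 0.61. Here the TOP-2-depleted group was the one that stood apart. In the authors' deposited tables nas-38 is called higher after TOP-2 depletion (log2 fold change 2.5) and not after TOP-1 depletion (-0.20). Genes count as called in those tables where the authors' adjusted p (Wald test) is under 0.05, a cut set here. The gene suex-1 was low in the control, at 19.5, and reached 1422 and 173, with a difference of 3.04 ± 0.73. The gene F12A10.9, of the same clone and named here after its values were seen, had levels of 14.4, 798 and 117 and a difference of 2.77 ± 0.70. Its adjusted p was 0.0559 by the Wald test with Benjamini-Hochberg adjustment, just over the threshold.

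The 6 genes that were lower after TOP-2 depletion spanned 0.537 to 3.88 kb and all stood above the control after TOP-1 depletion. The widest gap was in nhx-6, a sodium/proton exchanger gene, with levels of 35.1 in the control, 4.75 after TOP-2 depletion and 248 after TOP-1 depletion. Its difference was -5.70 ± 1.08 (SE, adjusted p 0.000736, Wald test with Benjamini-Hochberg adjustment), which is 52.1-fold, and rests on a very low level in the TOP-2-depleted group. The cuticle collagen gene col-101 had the smallest p, with levels of 792, 156 and 2501. It differed by -4.0 ± 0.70 (adjusted p 0.000175, Wald test with Benjamini-Hochberg adjustment), or 16-fold. In both genes the groups lay on opposite sides of the control. In the authors' deposited tables col-101 has log2 fold changes of -2.34 after TOP-2 depletion and 1.66 after TOP-1 depletion, and both are called.

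The other 4 have no assigned role used here. T20D4.12 had levels of 54.6 in the control, 86.1 after TOP-2 depletion and 868 after TOP-1 depletion, and F08G2.5 had 75, 50.6 and 438. On the X, F09C8.1 had levels of 170, 34.7 and 376, and the non-coding RNA gene W05H9.3 had 2218, 2093 and 8557. W05H9.3 was the most abundant of the 15, and its TOP-2-depleted level lay beside the control.

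**Figure D1:**
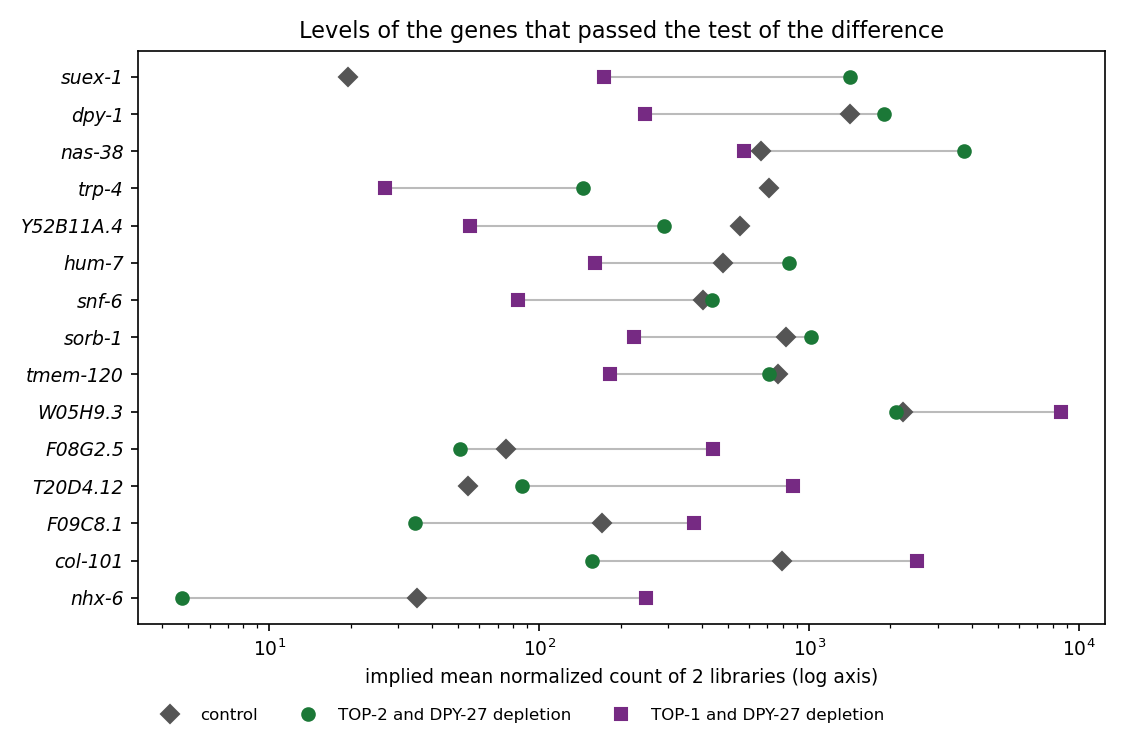
Implied mean normalized count (log axis) of the control, the TOP-2- and DPY-27-depleted larvae and the TOP-1- and DPY-27-depleted larvae for the 15 genes called by the independent test, each point the mean of 2 libraries with no spread available. For hum-7, sorb-1, snf-6, tmem-120 and dpy-1 the TOP-2-depleted point lies within 2-fold of the control and the TOP-1-depleted point lies to the left. The genes col-101 and nhx-6 have the control between the depleted groups.

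Of gene span, exonic length, intronic length, exon number and mean level, span had the highest correlation with the difference, though on the X by little (Spearman 0.37 against 0.35 for exonic length). Span was counted from start to end of the gene model, introns included, over 12703 protein-coding genes of the Ensembl annotation (WBcel235). On autosomes the median difference was -0.23 for the 1200 genes of up to 1 kb, of which 28.8% lay above 0. It was -0.13 for genes of 1 to 2 kb, -0.02 for 2 to 3 kb, 0.15 for 3 to 5 kb and 0.31 for 5 to 7.5 kb. It was 0.48 for 7.5 to 10 kb, 0.59 for 10 to 15 kb, 0.80 for 15 to 20 kb and 0.78 for the 168 genes over 20 kb. Of those longest genes 96.4% lay above 0. Short autosomal genes thus stood lower, and long ones higher, after TOP-2 depletion than after TOP-1 depletion, with a gap of 1.01 between the shortest and longest classes.

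The same order held on the X, from -0.47 for 214 genes of up to 1 kb to 0.44 for 25 genes over 20 kb. The X medians between were -0.32, -0.18, -0.07, 0.07, 0.11, 0.20 and 0.19. The gap between the shortest and longest X classes was 0.91. The Spearman correlation of span with the difference was 0.46 over 10692 autosomal genes and 0.37 over 2011 X genes. These are descriptions across genes of the same libraries, which are not independent replicates.

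**Figure D2:**
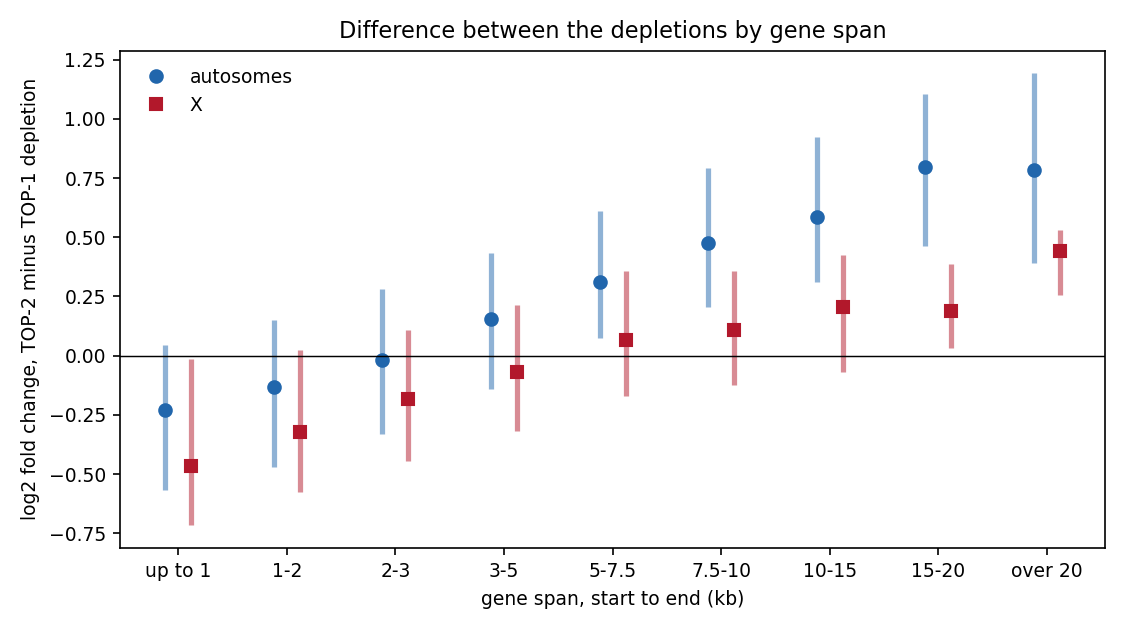
Median (points) and quartiles (bars) of the difference in log2 fold change, TOP-2 depletion minus TOP-1 depletion, in 9 classes of gene span in kb, for autosomes (circles) and the X (squares). Medians climb from -0.23 to 0.78 on autosomes and from -0.47 to 0.44 on the X, with the X below the autosomes in each class.

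Each depletion taken alone shows which group moved with span. In the authors' deposited table of the TOP-2 depletion, the median log2 fold change over control on autosomes was -0.25 in the shortest class and -0.14 in the longest, with all classes between -0.25 and -0.09. For the TOP-1 depletion the authors' deposited table has a median that went from 0.02 in the shortest class to -0.97 for 15 to 20 kb and -0.93 over 20 kb. On the X, the TOP-1 medians in the authors' deposited table went from 1.29 to 0.09, and the TOP-2 medians from 0.75 to 0.47. The Spearman correlation with span was 0.02 for the TOP-2 depletion and -0.26 for the TOP-1 depletion on autosomes, and 0.00 and -0.18 on the X. All of these are fold changes over the same control libraries.

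Calls made here from the authors' adjusted p-values, at under 0.05 by their Wald test, give the same picture for long autosomal genes. Of the 814 autosomal genes over 10 kb, 349 (42.9%) were called lower after TOP-1 depletion and 47 (5.77%) after TOP-2 depletion in the authors' deposited tables. Over all 13027 genes the authors' deposited tables call 14.5% lower after TOP-1 depletion and 8.47% after TOP-2 depletion. Higher calls covered 17.2% and 14.4% of all genes there, and 2.46% and 6.27% of the autosomal genes over 10 kb. Over 20 kb, 90 of 168 autosomal genes were called lower after TOP-1 depletion and 10 after TOP-2 depletion in the authors' deposited tables. Lower calls did not show it on the X. Among the 148 X genes over 10 kb, 5 (3.38%) were called lower after TOP-1 depletion and 0 after TOP-2 depletion in the authors' deposited tables. Of the 545 X genes of up to 2 kb, 26 (4.77%) were called lower after each depletion there. Higher calls after TOP-1 depletion covered 46.2% of these short X genes and 20.3% of those over 10 kb. After TOP-2 depletion they covered 29.5% and 23.6%.

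**Figure D3:**
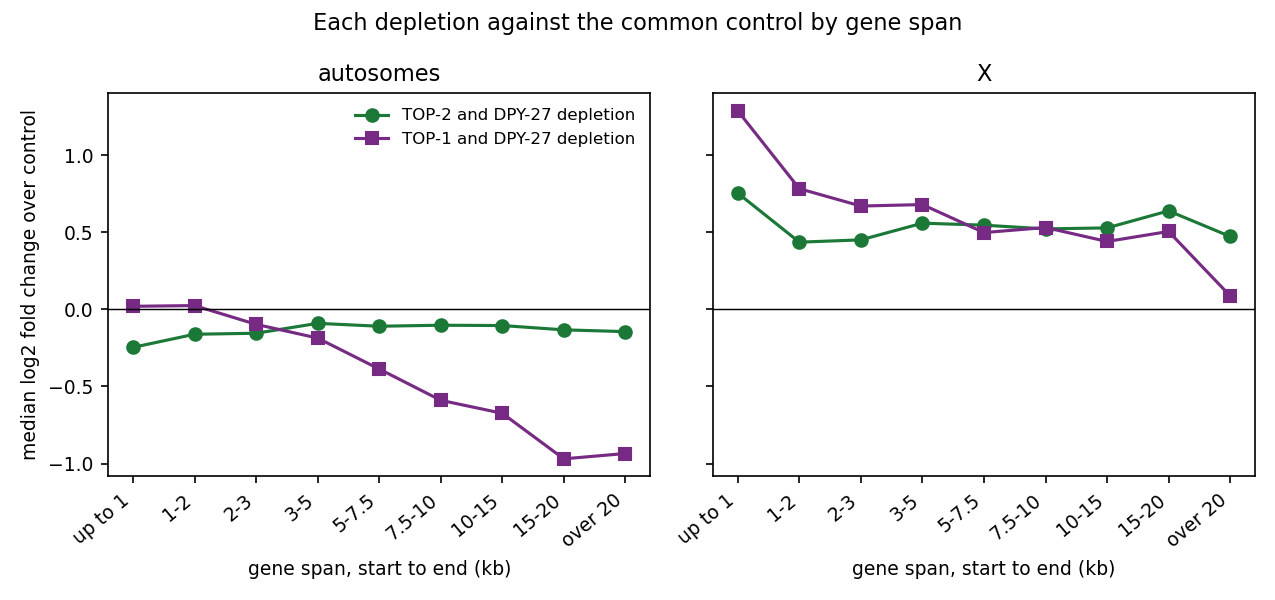
Median log2 fold change over the common control by class of gene span in kb, for autosomes (left) and the X (right), after TOP-2 and DPY-27 depletion (circles) and after TOP-1 and DPY-27 depletion (squares). On autosomes the TOP-2 line stays between -0.25 and -0.09 while the TOP-1 line falls from 0.02 to -0.93.

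Among the 10 longest autosomal genes, 9 had a difference above 0, with a median of 0.78. The insulin receptor gene daf-2 (46.3 kb) had levels of 2483 in the control, 2106 after TOP-2 depletion and 626 after TOP-1 depletion, a difference of 1.75 ± 0.57 (SE). The spectraplakin gene vab-10 (57.6 kb), which holds epidermis to muscle, had 24767, 21701 and 9558, a difference of 1.18 ± 0.45. For rhgf-3 (49.4 kb) the levels were 425, 267 and 108, and for afd-1 (49.6 kb), the afadin gene, they were 3278, 2260 and 937. These 4 genes passed with the control's share of the error left out, not with independent SEs. In each the TOP-1-depleted level was the lowest.

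The giant muscle genes did not share that order against the control. The titin gene ttn-1 (81.7 kb) had levels of 1674, 7602 and 5983, and the obscurin gene unc-89 (55.2 kb) had 4926, 12275 and 7791. Both depleted groups were above the control, and the differences, 0.35 ± 1.27 and 0.66 ± 0.62, were not called by either test. The cadherin gene hmr-1 (58.9 kb) had a difference of 0.66 ± 0.54. The exception below 0 was cox-6B, a cytochrome oxidase subunit gene, at -0.46 ± 0.55. Its model spans 87.2 kb and holds 0.572 kb of exon. The 5 longest X genes, among them the calcium channel gene unc-2 and the hemicentin gene him-4, all lay above 0, from 0.24 to 0.61, and none was called. In unc-2 and him-4 both depleted groups were above the control, and in the others the TOP-1-depleted group was below it.

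The relation with span held in each of 4 equal groups of genes by mean level. In the lowest, up to 85.7 counts, the median difference went from -0.27 up to 1 kb to 0.86 over 10 kb. In the highest, over 753 counts, it went from -0.27 to 0.56. With mean level held constant, the Spearman correlation was 0.47 on autosomes and 0.39 on the X.

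Among autosomal genes with 1 to 2 kb of exon, the median difference was -0.06 with up to 0.5 kb of intron. It was 0.23 with 2 to 5 kb of intron and 0.62 with more than 10 kb. Among genes with up to 0.5 kb of intron, it went from -0.20 with up to 1 kb of exon to 0.10 with 2 to 5 kb of exon.

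The genes called with the control's share left out split by span as well. The 229 higher calls with a gene model had a median span of 10.8 kb, and 126 of them spanned over 10 kb. The 103 lower calls had a median of 1.47 kb, and 0 of them spanned over 10 kb. Over all 12828 genes with a gene model the median was 2.65 kb, and 7.53% spanned over 10 kb.

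Relative to the autosomes, X genes were lower after TOP-2 depletion than after TOP-1 depletion. The median difference was -0.09 on the X and 0.07 on autosomes, a gap of -0.16. The X stood lower than the autosomes in each of the 9 span classes, by 0.16 for 2 to 3 kb at the least and by 0.61 for 15 to 20 kb at the most. Relative to all genes of like span the gap was -0.24. In the authors' deposited tables the X genes had a median log2 fold change over control of 0.54 after TOP-2 depletion and 0.67 after TOP-1 depletion. Autosomal medians were -0.14 and -0.16 in the authors' deposited tables.

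When X genes were put in order along the chromosome and divided into 10 runs of 202 or 203 genes, 9 medians of the difference were below 0. They ranged from -0.17 to 0.00, the last at the left end. Among autosomes the medians were 0.20 on I, 0.04 on II, 0.14 on III, 0.09 on IV and -0.09 on V, so chromosome V lay as low as the X. Relative to autosomal genes of like span, the median of chromosome V was -0.12 and that of chromosome I was 0.07. Gene by gene, the independent test called 1 X gene higher (nas-38) and 2 lower (F09C8.1 and W05H9.3). With the control's share of the error left out, 11 X genes (0.532%) were higher and 15 (0.726%) lower, against 2.1% and 0.803% of autosomal genes.

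Transcripts of the tagged genes were read first among the topoisomerase and condensin genes. The degron acts on protein, so these transcripts do not check the depletion. For top-2 the levels were 1205 in the control, 1070 after TOP-2 depletion and 1333 after TOP-1 depletion, a difference of -0.32 ± 0.49 (SE). For top-1 they were 1781, 1740 and 1587, a difference of 0.13 ± 0.45. For dpy-27 they were 1294, 1185 and 886, a difference of 0.42 ± 0.55. All 3 differences were smaller than their SE. The topoisomerase III gene top-3 differed by 0.77 ± 0.61 and cin-4, a gene related to top-2, by 0.06 ± 1.24, neither called.

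Of the 10 genes of condensin DC and its recruiters, 8 lay above 0 and the median was 0.38, against 0.04 over all genes, and relative to genes of like span it was 0.03. None was called by either test. The condensin subunit gene dpy-28 (13.9 kb) had levels of 950, 1103 and 439 and a difference of 1.33 ± 0.61. The histone demethylase gene dpy-21 (12.9 kb) had levels of 2276, 2274 and 1060 and a difference of 1.1 ± 0.53. Their unadjusted p-values by the Wald test were 0.030 and 0.0364, and both fail the adjustment. In both, the TOP-1-depleted level was under 0.5 times that of the control. The recruiter gene sdc-2, on the X, differed by -0.34 ± 0.51.

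Condensin I and II genes had 8 of 8 members above 0 (median 0.40) and cohesin genes 12 of 12 (median 0.45). The condensin I and II list shares members with that of condensin DC, dpy-28 (1.33) and capg-1 (0.29) among them, so these 2 lists are not separate. Of 35 genes of DNA replication and mitosis, 33 lay above 0, with a median of 0.39. DNA damage and repair genes had a median of 0.32, and 34 of 42 lay above 0. None of the members of these lists was called by either test. Relative to genes of like span the 4 medians were 0.15, 0.24, 0.34 and 0.04.

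Gene lists are described below by their counts and medians, with a median of 0.04 and 53.3% above 0 over all genes. Markers of tissues are among them. Medians relative to genes of like span use the same span classes, X and autosomal genes apart. In bulk larvae fewer cells of a type and less RNA per cell cannot be told apart. Of all list members, 2 were called by the independent test (nas-38 and col-101) and 46 with the control's share of the error left out. The lists hold 1684 genes in all, so these are 0.119% and 2.73% of their members, near the 0.115% and 2.64% over all genes. By direction, 1.25% of the members passed as higher and 1.48% as lower, against 1.85% and 0.791% over all genes. The calls in the following paragraphs are of the second kind unless stated.

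Moulting genes, astacins, cuticlins and pharynx markers had medians between 0.60 and 0.65, the highest of the lists before span was taken into account. The moulting list had a median of 0.65 with 33 of 39 members above 0, and 4 (10.3%) passed, all higher after TOP-2 depletion, as 1.85% of all genes did. The protease inhibitor gene mlt-11 had levels of 22486 in the control, 8566 after TOP-2 depletion and 1285 after TOP-1 depletion, a difference of 2.74 ± 0.84 (SE). The Patched-related gene ptr-18 had levels of 3030, 1725 and 388, a difference of 2.15 ± 0.71. The other two were the zinc finger gene bed-3 (1.60 ± 0.66) and the peroxidase gene mlt-7 (1.34 ± 0.59). The list's median log2 fold change over control was -0.55 after TOP-2 depletion and -1.12 after TOP-1 depletion in the authors' deposited tables, below 0 in both. Relative to genes of like span the list's median was 0.30.

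Astacin proteases had a median of 0.62, with 23 of 29 above 0. Besides nas-38, nas-30 passed (levels 374, 851 and 161; 2.40 ± 0.81), and so did nas-8 (2.06 ± 0.80), which makes 10.3% of the list higher against 1.85% of all genes. Cuticlins had a median of 0.61 with 23 of 27 above 0, and none passed. Hedgehog-related genes had a median of 0.48 with 29 of 40 above 0. The one that passed, grd-3, was lower after TOP-2 depletion (-1.68 ± 0.56), 2.5% of the list against 0.791% of all genes.

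The 116 cuticle collagens measured did not move as a block. Their median was 0.10, with 61 above 0, and was -0.08 without the floor. They ranged from -4.0 for col-101 to 2.64, and 5 (4.31%) passed as lower and 1 (0.862%) as higher, against 0.791% and 1.85% of all genes. Of these, col-96 had levels of 14.5, 168 and 1102 and a difference of -2.71 ± 0.74. The rest of the lower ones were col-176 (-2.97 ± 1.24), col-80 (-1.91 ± 0.56) and col-142 (-1.46 ± 0.46), and the higher one was col-113 (1.70 ± 0.63). Collagens of near-identical sequence may share reads, so single members are uncertain.

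Detoxification and immune genes lay on the negative side. Glutathione S-transferases, which join glutathione to toxic compounds, had the lowest median, -0.86, with 38 of 45 below 0, and 5 (11.1%) passed, all lower after TOP-2 depletion, as 0.791% of all genes did. Of these gst-24 had levels of 157 in the control, 198 after TOP-2 depletion and 1027 after TOP-1 depletion, a difference of -2.38 ± 0.61 (SE). The other passing members were gst-8 (-2.98 ± 1.26), gst-12 (-1.79 ± 0.62), gst-5 (-1.41 ± 0.56) and gst-26 (-1.31 ± 0.57). With independent SEs the adjusted p of gst-24 was 0.0578 by the Wald test with Benjamini-Hochberg adjustment. Relative to genes of like span the list's median was -0.63.

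C-type lectins, many of which are induced by infection, had a median of -0.80, and 83 of 97 lay below 0. Of the 97, 6 (6.19%) passed as lower, against 0.791% of all genes, and clec-12 was the farthest, with levels of 56.6, 17.6 and 159 and a difference of -3.18 ± 0.81. The others named were clec-174 (-2.33 ± 0.97), clec-17 (-1.99 ± 0.71) and clec-42 (-1.63 ± 0.71). The list's median over control was 0.67 after TOP-2 depletion and 1.61 after TOP-1 depletion in the authors' deposited tables. Relative to genes of like span it kept a median difference of -0.77.

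Lysozymes and antimicrobial peptides had a median of -0.52, and 38 of 52 lay below 0. The saposin-like gene spp-18 passed as lower (-1.83 ± 0.69) and the peptide gene nlp-34 as higher (1.81 ± 0.58). Each is 1.92% of the list, against 0.791% of all genes as lower and 1.85% as higher. Cytochrome P450s had a median of -0.40 and 49 of 63 below 0. The xenobiotic-inducible cyp-35A1 passed as lower, with levels of 72.0, 5.41 and 35.7, and so did cyp-13A6 (-1.51 ± 0.65), together 3.17% of the list. UDP-glucuronosyltransferases had a median of -0.29, with ugt-14 (1.67% of the list) passing as lower (-1.83 ± 0.70). The oxidative stress and metal list had a median of -0.52. Its superoxide dismutase gene sod-3 (5.26% of the list) passed as lower, with levels of 28.9, 37.9 and 215.

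The pals genes (median -0.46), F-box genes (-0.40), insulin-like peptides (-0.55) and fatty acid metabolism (-0.21) had no member past either test. Of the heat shock list (median -0.18) only hsp-16.2 passed, as lower, which is 6.25% of the list against 0.791% of all genes. It had levels of 630, 22.4 and 149 and a difference of -2.73 ± 0.90. Both depleted groups were below the control there. Members of the ER unfolded protein response had a median of 0.00, with 8 of 17 above 0, and those of the mitochondrial response had -0.16, and none passed.

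Nuclear-encoded oxidative phosphorylation genes had a median of -0.48 with narrow quartiles of -0.58 and -0.39, and 44 of 50 lay below 0, though none passed. The ATP synthase gene atp-2 had levels of 49286, 41387 and 54115, a difference of -0.39 ± 0.42. Relative to genes of like span the list's median was -0.37. Ribosomal proteins had a median of -0.17 with 74 of 76 below 0, and 0.03 relative to genes of like span, so their place matched that of other short genes. Proteasome genes had a median of -0.11 and -0.01 relative to genes of like span. Genes for ribosome biogenesis and RNA polymerase I had a median of 0.22 with pro-3 higher (1.40 ± 0.49), 2.5% of the list against 1.85% of all genes. Those of RNA polymerase II had 0.13 with cdk-9, the P-TEFb kinase gene (2.94% of the list), higher. Its levels were 507, 466 and 216, and its difference was 1.11 ± 0.48.

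Tissue markers lay on both sides. Pharynx markers had a median of 0.60 with 27 of 32 above 0. Of them abu-8 passed as higher, with levels of 69.5, 4153 and 913, which is 3.1% of the list against 1.85% of all genes. Relative to genes of like span the median was 0.66. Intestine markers had a median of -0.41, with 27 of 33 below 0 and none passing. Body wall muscle markers had 0.09, or -0.21 relative to genes of like span. Germline genes had 51 of 55 above 0 and a median of 0.44, with none passing. In the authors' deposited tables the germline list stood far above the control in both, with medians of 2.96 after TOP-2 depletion and 2.47 after TOP-1 depletion. Pharynx markers stood higher still there, at 5.41 and 4.72 in the same order, and so did insulin-like peptides, at 4.15 and 4.94. The floor of 10 is on a mean over control and depleted libraries. A gene near 0 in the control can therefore reach it through the depleted groups alone, which raises such medians. Of the insulin-like peptides 21 of 32 reached the floor, of the pharynx markers 32 of 33 and of the germline genes 55 of 58.

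Neuronal genes had a median of 0.41 with 42 of 50 above 0, and 0.13 relative to genes of like span. The kinesin gene unc-104 (15.6 kb), which moves synaptic vesicle precursors, had levels of 2905, 1302 and 508 and passed as higher (1.36 ± 0.55). The dynein heavy chain gene che-3 (19.7 kb), needed for cilia, did as well, with levels of 563, 341 and 109. Together they are 4% of the list, against 1.85% of all genes. Neuropeptide genes, which are short, had a median of -0.32, and -0.11 relative to genes of like span, with 82 of 101 below 0. Of this list nlp-30 (1.37 ± 0.51) and nlp-34 passed as higher, which is 1.98%, near the 1.85% of all genes.

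The hypodermis list had a median of 0.28 with mup-4 (1.04 ± 0.45) and vab-10 higher, 10.5% of the list against 1.85% of all genes. The list of excretory cell, gland and coelomocyte had 0.31 with exc-6 (6.25% of the list) higher (1.63 ± 0.67). Hox and axis patterning genes had 0.49, with the Wnt gene egl-20 (5.56% of the list) higher: its levels were 2815, 529 and 188. Among insulin signalling and DAF-16 targets, with 14 on each side of 0, daf-2 was higher while sod-3, dod-24 (-1.80 ± 0.68) and dod-3 (-1.60 ± 0.68) were lower. That is 3.57% of the list as higher and 10.7% as lower, against 1.85% and 0.791% of all genes. Anterior markers outside the pharynx had a median of 0.22 with ttx-1 (5% of the list) higher (1.39 ± 0.58), and posterior markers had 0.09. Core histones had 0.28, sperm genes 0.43, sex determination genes 0.39, heterochronic genes 0.28, argonautes and small RNA genes 0.31, and chromatin and nuclear pore genes 0.15, with none passing. Genes of fasting and one-carbon metabolism had -0.12, also with none passing, 2 vitellogenins were measured, and of mitochondrially encoded genes 0 were measured. Relative to genes of like span, medians fell to 0.09 for hypodermis, 0.14 for Hox and axis patterning and 0.20 for excretory cell, gland and coelomocyte. They fell to 0.21 for sex determination, 0.09 for argonautes and small RNA genes and 0.08 for chromatin and nuclear pore genes. Sperm genes then had 0.34, anterior markers 0.19 and core histones 0.51. The moves of tissue and stage lists stand beside the gene results as values, and their part in them was not tested.

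**Figure D4:**
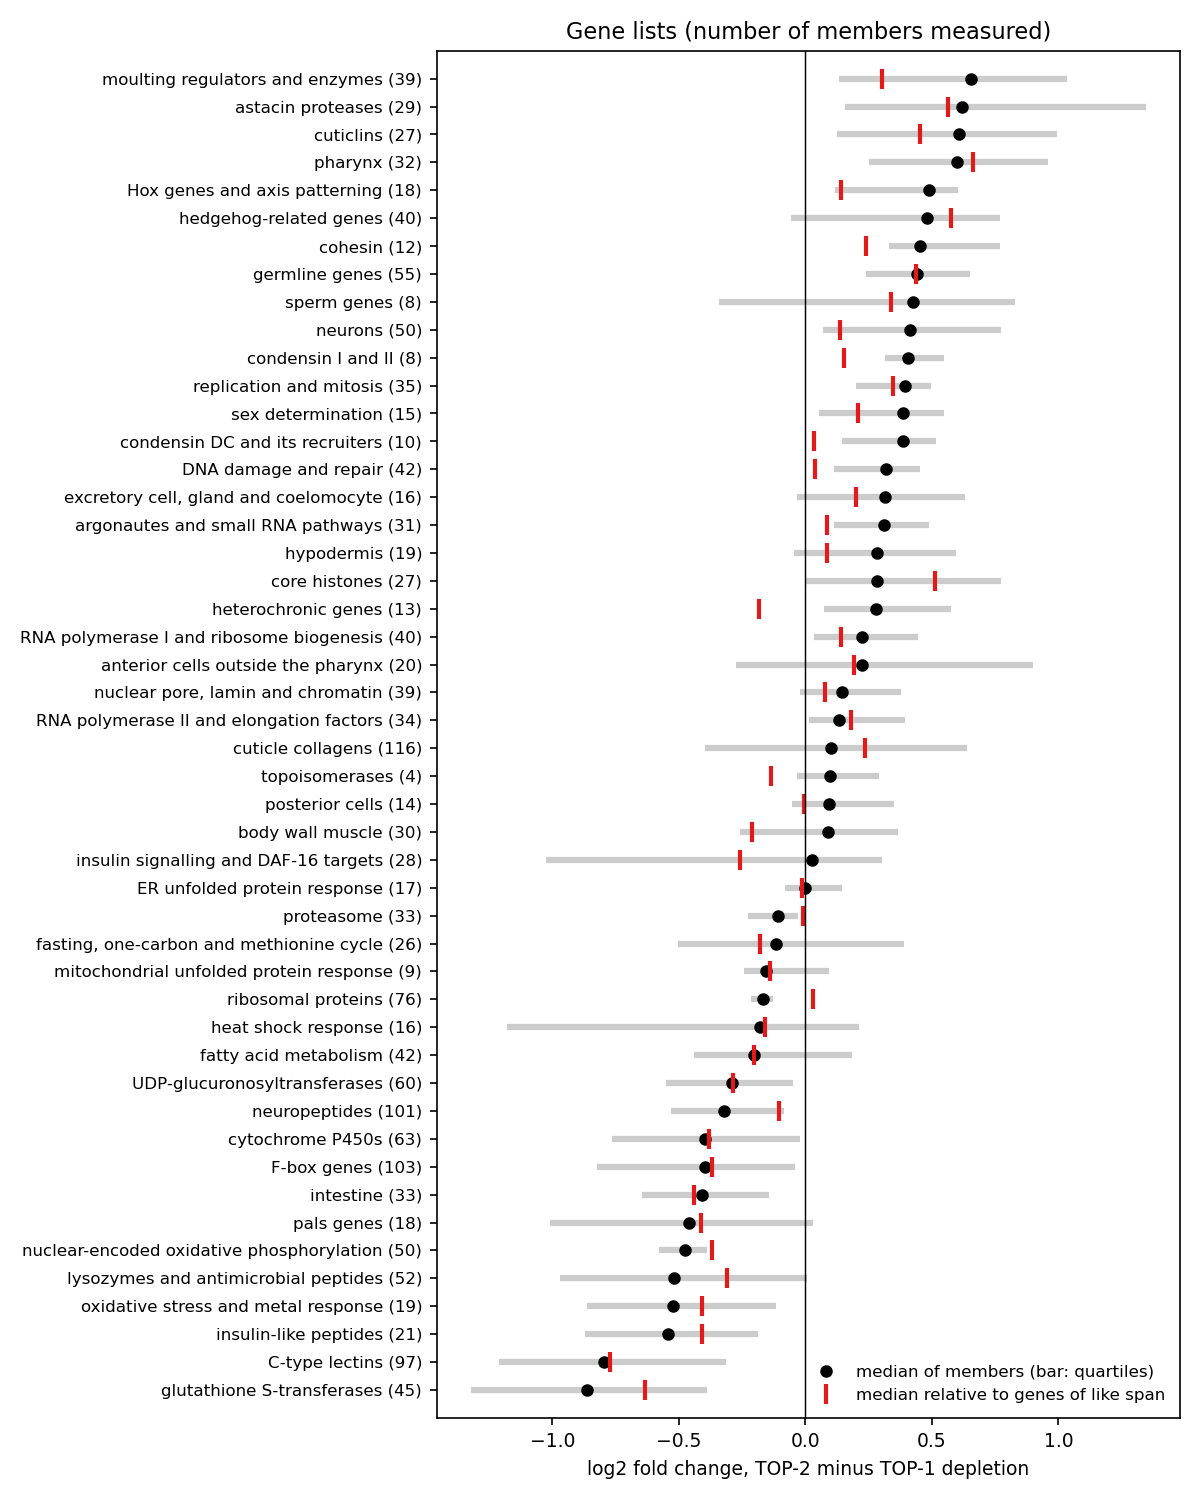
Median difference in log2 fold change, TOP-2 depletion minus TOP-1 depletion, for each list with 3 or more measured members (points, with quartiles as bars and the number of members in brackets), and the median relative to genes of like span (vertical marks). Glutathione S-transferases (-0.86) and C-type lectins (-0.80) lie lowest and moulting genes (0.65) highest, while the marks for ribosomal proteins and condensin DC both lie at 0.03.

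Called genes also lay beside one another. With the control's share of the error left out, 50 of the 229 higher calls (21.8%) had another higher call as an adjacent measured gene, a place that 3.37% of all genes have. Of the 103 lower calls, 7 (6.80%) had a lower call beside them, against 1.57% of all genes.

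Over all runs of 15 neighbouring measured genes, the highest median was 1.35, in a run on chromosome II from ztf-22 to Y48E1C.4. This run was picked for its values and is given as a description. In it 14 of 15 genes lay above 0 and 8 (53.3%) passed as higher, against 1.85% of all genes. Among them were the E2F-related gene efl-2 (2.19 ± 0.58), sam-10 (1.35 ± 0.52) and Y48C3A.12 (1.69 ± 0.49). In the authors' deposited tables the run's median log2 fold change over control was -0.15 after TOP-2 depletion and -1.40 after TOP-1 depletion. The next 11 genes, from tbc-14 to nep-17, had a median of -0.27 and none passed. The 6 genes after them, of clone Y48E1B, had a median of 1.54, with 6 of 6 above 0. Of these 4 (66.7%) passed as higher, against 1.85% of all genes. They were snx-14 (1.58 ± 0.48), noa-1 (1.49 ± 0.48), ddl-2 (2.06 ± 0.54) and Y48E1B.3 (1.84 ± 0.48). The genes in the middle had a median span of 3.38 kb, against 6.06 kb in the first run and 7.93 kb in the last. The medians of the 3 blocks relative to genes of like span were, in order along the chromosome, 1.04, -0.31 and 1.04.

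**Figure D5:**
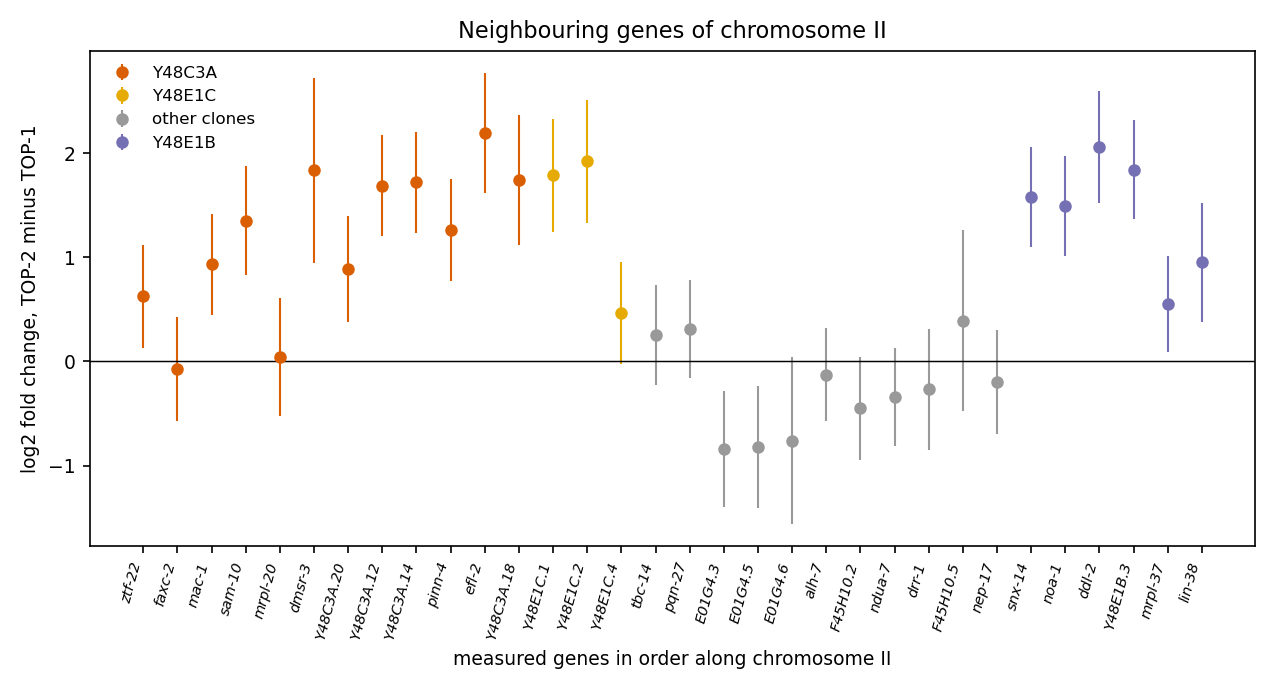
Difference in log2 fold change with its SE (bars) for 32 neighbouring measured genes of chromosome II in their order, coloured by the clone in their sequence names. The Y48C3A and Y48E1C genes have a median of 1.35, the 11 genes of other clones -0.27 and the 6 Y48E1B genes 1.54.

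A larger group shared that trait of the name. Autosomal genes whose sequence names begin with Y, which were read from yeast artificial chromosome clones, had a median difference of 0.30 over 2058 protein-coding genes. Other autosomal genes had 0.02 over 8634. At over 20 kb the medians were 1.14 and 0.62, at 10 to 15 kb 0.80 and 0.46, and at up to 1 kb -0.27 and -0.22. Over 20 kb the gap lay mostly in the TOP-1 depletion, with medians of -1.2 and -0.78 in the authors' deposited table. The TOP-2 medians of that class were -0.09 and -0.16. At 15 to 20 kb both depletions added to the gap. The TOP-1 medians there were -1.04 and -0.90, and the TOP-2 medians -0.02 and -0.25. Without the Y-named genes, the Spearman correlation of span with the difference was 0.40 on autosomes and 0.37 on the X.

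The lowest run of 15 genes lay on chromosome V, from T28A11.17 to C17B7.4, with a median of -1.84 and 0 of 15 above 0. It is part of a group of 32 genes of clones T28A11, F35F10, C17B7 and T20D4, of which 32 lay below 0, with a median of -1.24. The group was also picked for its values. Of its members 6 (18.8%) passed as lower, T20D4.12 among them, against 0.791% of all genes. In the authors' deposited tables their median log2 fold change over control was 0.32 after TOP-2 depletion and 1.64 after TOP-1 depletion, so both depleted groups were on the higher side and the TOP-1-depleted group further. The 32 genes were short, with a median span of 1.19 kb, and relative to genes of like span their median was -1.01.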

How the data were processed

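RNA was measured in 4 libraries, 2 of strain AM11 and 2 of AM12, and the deposited files are 2 tables of results per gene, without library values. The authors deposited mean normalized counts (a signal averaged over the libraries of a comparison), log2 fold changes over the control with their SE, the Wald statistic (a score), and p-values and adjusted p-values, per the file headers. The submitters' processing notes name CASAVA 1.8, DESeq2 1.30.0, Cufflinks 2.2.1, HTSeq 0.13.5 and HISAT2 2.2.1 and give no role to each. The genome build, use of strand and treatment of shared reads are not given in the sources used here. Coordinates are therefore left out, and single members of near-identical families, overlapping genes and antisense pairs are uncertain.

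Tables were joined on the gene name (16623 genes in both) and genes under a mean of 10 in either were left out. The difference of the deposited log2 fold changes was divided by the root of the summed squared SEs (Wald z, two-sided) and adjusted by Benjamini-Hochberg over 13027 genes, with python 3.11.15, pandas 2.3.3 and scipy 1.17.1. The procedure was tested on simulated data. Spans, biotypes, symbols and gene order came from Ensembl (WBcel235), which matched 98.5% of genes. Total reads per library are unknown, and the SE sets the precision. The rule for named genes took the called genes, the tagged, topoisomerase and condensin DC genes and up to 4 called members per list in each direction; the 2 most abundant members of lists without a call are mostly not printed. List members called with the control's share left out, gst-26 and col-142 beyond 4 among them, the longest genes and the neighbouring runs were chosen after seeing the data. The members and the 50 gene lists were chosen with earlier results of these data known. Alternatives were the control's share of the error, the floor, centring, stricter p, coding genes, exonic length and span classes.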

Additional observations from a re-analysis of the deposited data

Results flagged for a closer look

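The 15 genes that passed the test of the difference are given once more here because their fold changes over the control differed between the depletions by the Wald test of the difference itself. Lower after TOP-2 depletion were nhx-6 (difference -5.70), col-101 (-4.0), F09C8.1 (-3.44), T20D4.12 (-3.33), F08G2.5 (-3.11) and W05H9.3 (-2.03). Higher after TOP-2 depletion were tmem-120 (1.96), sorb-1 (2.18), snf-6 (2.39), hum-7 (2.39), Y52B11A.4 (2.39), trp-4 (2.44), nas-38 (2.70), dpy-1 (2.94) and suex-1 (3.04). Of the 9 higher genes 6 span over 10 kb, and of the 6 lower genes 0 do, against 7.53% of all genes with a gene model. With so small a share over all genes, 0 of 6 says little. No group of 4 or more libraries exists, so single libraries were not examined for outlying values.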

How the results depend on the processing

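The count of called genes depended on how the error of the common control was treated. It was 15 with independent SEs, 344 with the control's share taken out, 358 with that share computed from the recovered dispersion (added after seeing the data) and 3 at an adjusted p under 0.01. It was 14 without the floor, 12 at a floor of 100 and 19 after centring. Called list members went from 2 to 46 with the control's share taken out and to 4 after centring. Under the alternatives run, the gap between X and autosomes stayed between -0.12 and -0.24. The Spearman correlation with span stayed between 0.40 and 0.54 on autosomes and between 0.34 and 0.44 on the X. With exonic length in place of span it was 0.38 on autosomes and 0.35 on the X. The medians of 26 of 48 lists moved by over 0.1 relative to span classes, an alternative added after seeing the data. Heterochronic genes then had -0.19, body wall muscle -0.21, topoisomerases -0.13 and insulin signalling genes -0.26, on the other side of 0 from before, and ribosomal proteins 0.03. Sperm genes had -0.10 without the floor and anterior markers -0.15 at a floor of 100. The cause was not tested. No paired analysis was possible because the tables hold no value per library, and for the same reason no library could be left out in turn.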
